A study of Mus musculus with 2 samples.

Results

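Pretubular aggregate and renal vesicle cells are the first epithelial step of a new nephron, and 213 of the 14565 cells of the series were taken as such. A cell was counted when it held at least 2 UMIs of Wnt4, at least 1 UMI of Lhx1 and a UMI of at least 1 of Jag1, Pax8, Fgf8 and Tmem100, and no UMI of Cited1, Six2, Osr2 or Irx1; a UMI is the molecular tag that stands for 1 captured transcript. Cells with an authors' hybrid doublet score above 1 were dropped. The rule found 116 of 9071 control cells and 97 of 5494 exposed cells, called vesicle cells below. The members were thus chosen by their own UMI counts of these 10 genes, and levels of those genes are given as a description. The study used droplet single-cell RNA sequencing on kidneys of C57BL/6J mice taken on postnatal day 2, with 1 control library and 1 library exposed to maternal diabetes (labelled DM_Exp). The submitters' text names male mice, 1 kidney and pooled cells, and does not say how the maternal diabetes was brought about or give a genotype beyond the strain. The cells of both groups were dissociated with trypsin and frozen before loading. With 1 library per group no value has a replicate check and no test of the exposure exists, so differences are described with 95% intervals that cover counting error only.

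In the developing kidney, Six2- and Cited1-bearing progenitors of the cap mesenchyme condense beside the tips of the ureteric bud, in response to Wnt9b, into pretubular aggregates that switch on Wnt4, Fgf8, Pax8 and Lhx1. Wnt4 and Fgf8 are secreted signals and Pax8 and Lhx1 are transcription factors needed for the aggregate to become the renal vesicle, a hollow ball of epithelium. The vesicle is polarised from an early stage: the distal side, next to the bud, carries Notch ligands and Lhx1 at high level, and the proximal side gives rise to podocytes and proximal tubule, with Wt1 among its transcription factors. In mice nephron formation ends within days of birth, so such cells are present at postnatal day 2.

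The Notch ligand Jag1 is part of the rule. The Notch target Hes5, a transcriptional repressor that is not, was found mostly in vesicle cells that held Jag1 (values below). The part of depth in that difference was not tested. The 250 bases before the Hes5 start are shown here because this gene was among those furthest above progenitors and was compared with Jag1 cell by cell. They lie on the plus strand of chromosome 4 at chr4:154960673-154960922 (GRCm38.p6, sequence from RefSeq), upstream of and outside the transcript, and the capitals mark the letters TGGGAA, the core of the motif that the Notch effector Rbpj binds, or their reverse complement TTCCCA.
Hes5: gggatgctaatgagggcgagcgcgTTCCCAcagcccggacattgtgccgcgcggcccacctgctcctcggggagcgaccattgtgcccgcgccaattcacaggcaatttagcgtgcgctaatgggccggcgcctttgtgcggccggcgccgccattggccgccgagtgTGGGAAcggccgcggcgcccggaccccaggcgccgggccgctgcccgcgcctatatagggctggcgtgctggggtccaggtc
The 2 matches begin at positions -226 and -82 from the start. On either strand these letters occur in 21.6% of all 32851 RefSeq promoters over the same 250 bases, and a match is a description of the letters, not a binding site. The windows of Jag1, Dll1, Nrarp and Hes6 hold no match, and Hes1, Hey1 and Heyl were not matched in the promoter table.

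The steps of the rule show how the vesicle cells were cut out. Of 1646 cells with at least 2 Wnt4 UMIs, 737 also held Lhx1 and 710 of these held 1 of the 4 further genes. Osr2, a transcription factor of later proximal and medial epithelium, was the most common reason for removal, in 287 of the 710. Cited1 removed 213, Six2 169 and Irx1, a factor of medial segments, 32, with overlap among them. After that 239 cells were left, of which 26 had a high hybrid score. Among the vesicle cells 177 held Pax8, 160 Jag1, 73 Fgf8 and 58 Tmem100. In 51 of the 213 the Wnt4 count was exactly 2, and 55 more cells would have met every other condition with 1 Wnt4 UMI. In the control library the cells just outside, at 1 Wnt4 UMI, stood at 402 CPM of Lhx1 and 566 CPM of Ccnd1, against 350 and 682 CPM in the cells just inside (CPM are counts per 1e6 UMIs, summed over the cells). In the exposed library the corresponding values were 409 and 800 CPM outside and 535 and 594 CPM inside. Cells with 3 or more Wnt4 UMIs stood at 456 and 1213 CPM in the control and 377 and 1225 CPM in the exposed library. Ccnd1 in the cells just inside was thus nearer to the cells outside than to the other vesicle cells. The adhesion gene Epcam stood in control and exposed cells at 427 and 983 CPM outside, 443 and 411 CPM just inside, and 174 and 173 CPM at 3 or more. The authors' own clusters, which carry no names and were numbered separately in each library, placed all 116 control vesicle cells in 1 cluster and 95 of the 97 exposed ones in 1 cluster. These clusters held 3335 control and 1963 exposed cells, of which vesicle cells were 3.48% and 4.84%. They also held 264 and 153 Cited1- and Six2-bearing progenitors, 141 and 119 Osr2- and Lhx1-bearing cells, and 52 and 43 Irx1- and Lhx1-bearing cells. The authors' clusters thus did not set vesicle cells apart from these populations.

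The vesicle cells of the exposed library held more UMIs per cell, which is called depth here. They held 1597 to 37316 UMIs with a median of 7381, against 1127 to 20247 with a median of 5654.5 in the control library, and a median of 2544 against 2143.5 genes. A median of 4.4% of their UMIs came from the mitochondrial genome, against 5.40% in the control. The whole libraries differed in the same direction, with medians of 4346 and 3523 UMIs per cell. The libraries shared 14 cell barcodes, none of them in a vesicle cell.

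Vesicle cells made up 1.77% of the exposed library (95% Clopper-Pearson interval 1.43 to 2.15) and 1.28% of the control library (1.06 to 1.53). The difference was 0.487 percentage points with a Newcombe interval of 0.0821 to 0.925. Because the rule needs several detected genes, the shares were also taken after every cell had been thinned to 3000 UMIs and shallower cells had been left out. The shares were then 1.45% of 4070 exposed cells and 1.28% of 5401 control cells, and the difference of 0.172 points had an interval from -0.295 to 0.666. At equal depth a difference in the share of vesicle cells was therefore not detectable.

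**Figure D1:**
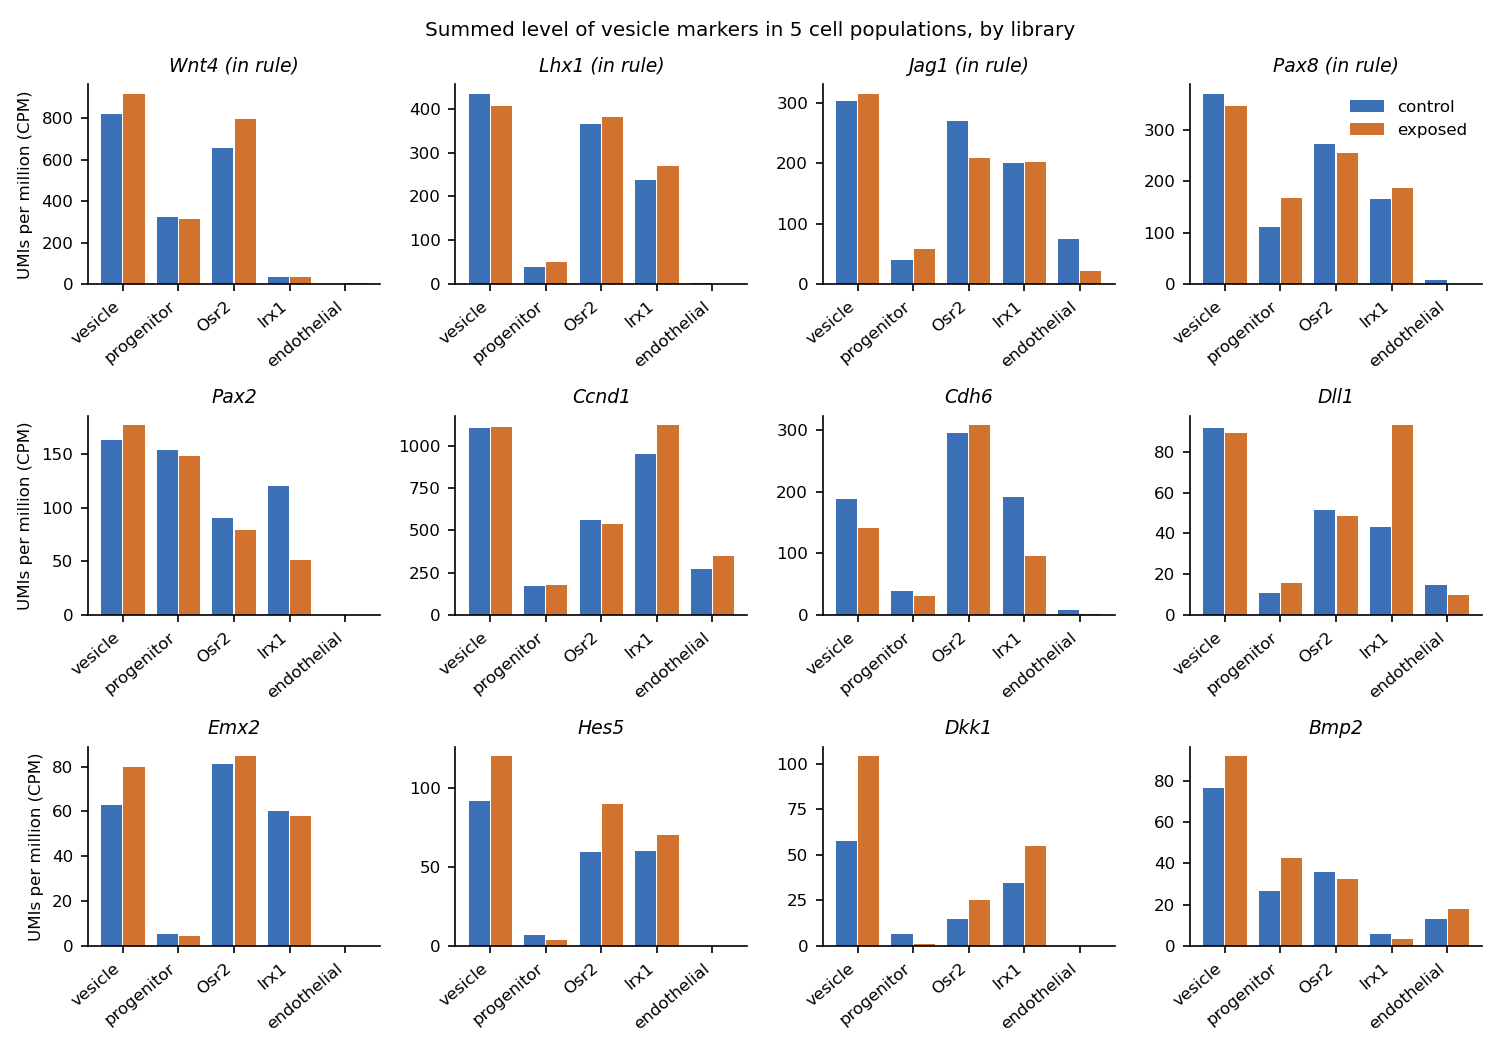
Summed levels (CPM, vertical axes, each starting at 0) of 4 genes of the rule and 8 further markers in 5 cell populations of each library: vesicle cells, Cited1- and Six2-bearing progenitors, Osr2- and Lhx1-bearing cells, Irx1- and Lhx1-bearing cells, and endothelial cells. Hes5, Emx2 and Dkk1 are at or near 0 in progenitors and endothelial cells of both libraries, and the bars have no error since each is a sum over 1 library.

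The label was checked against markers that the rule does not use. Of 13 such markers, 12 were higher in vesicle cells than in progenitors in both libraries and 8 were higher by at least 1 on the log2 scale in both, where 10 CPM were added to each level. Across all 6974 genes measured in that comparison, 2.08% were higher by 1 or more in both libraries. Ccnd1, the G1 cyclin that responds to Wnt signals, stood at 1105 CPM in control and 1109 CPM in exposed vesicle cells and at 170 and 174 CPM in progenitors. Hes5 stood at 91.8 and 121 CPM in vesicle cells and at 7.20 and 3.50 CPM in progenitors. Emx2, a homeobox factor of nephron epithelium, stood at 62.9 and 80.0 CPM against 5.40 and 4.37 CPM. The vesicle label thus carried several markers that were near absent from progenitors. The same markers set vesicle cells less apart from later epithelium than from progenitors. Against Osr2-bearing cells 8 of 13 were higher and 5 lower in both libraries, where 31.2% and 37.2% of all genes were. Of the 8, 1 was higher by 1 or more, against 0.434% of all genes, and Emx2 stood at 81.0 and 84.7 CPM in Osr2 cells. Against Irx1-bearing cells 7 were higher and 2 lower in both, where 33.0% and 32.5% of all genes were. Of the 7, 1 was higher by 1 or more, against 1.67% of all genes, and Ccnd1 stood at 950 and 1121 CPM in Irx1 cells. The exception against progenitors was Heyl, a Notch target, at 42.8 and 20.3 CPM in vesicle cells and 36.0 and 29.7 CPM in progenitors. Pax2, the paired-box factor that progenitors and vesicles both use, differed little from progenitors, at 164 and 178 CPM against 154 and 149 CPM. Npnt, a matrix ligand, stood at 31.5 and 138 CPM in vesicle cells, and 67.6% of its exposed UMIs came from 1 cell. The comparison is a description, since the populations were cut from the same counts.

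Progenitor genes were low beyond Cited1 and Six2, which the rule sets to 0. Tgfbi stood at 15.1 and 5.42 CPM in vesicle cells of the control and exposed library, against 221 and 183 CPM in progenitors. Crym stood at 6.29 and 14.9 CPM against 127 and 140 CPM, and Meox1, a homeobox factor of the cap mesenchyme, at 3.77 and 8.13 CPM against 85.8 and 120 CPM. Robo2, the Slit receptor, stood at 15.1 and 16.3 CPM against 125 and 115 CPM. Of 20 progenitor genes measured that the rule does not use, 16 were lower in both libraries, against 23.8% of all genes, and 11 of these by 1 or more, a size that 1.26% of all genes reached. Wt1, which progenitors and the proximal vesicle share, was also lower in both libraries but by less than the genes named above, at 292 and 228 CPM against 381 and 337 CPM. Heat shock genes, which cell dissociation can induce, were lower in vesicle cells than in progenitors for 19 of 19 genes in both libraries, against 23.8% of all genes; the part of dissociation in this was not tested.

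The epithelial programme separated vesicle cells from progenitors. Of 26 junction and polarity genes measured, 25 were higher in both libraries, against 44.4% of all genes, and 14 were higher by 1 or more, against 2.08%. Cdh6, the cadherin of the early vesicle, stood at 189 and 141 CPM in vesicle cells against 38.4 and 30.6 CPM in progenitors. Cldn5, a claudin best known from endothelium, stood at 364 and 224 CPM against 36.6 and 34.1 CPM. Epcam, an epithelial adhesion molecule, stood at 229 and 217 CPM against 63.0 and 75.2 CPM, and Cdh1, which encodes E-cadherin, was still low at 18.9 and 33.9 CPM. Mesenchymal Vim was lower, at 79.3 and 90.8 CPM against 274 and 331 CPM. Cdh6 and Epcam thus stood above their progenitor levels in both libraries.

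Signals and their targets came next. Of 13 distal-side vesicle genes measured that the rule does not use, 12 were higher in vesicle cells than in progenitors in both libraries, against 44.4% of all genes, and 11 by 1 or more, against 2.08%. Dkk1, a secreted Wnt inhibitor and Wnt target, stood at 57.9 and 104 CPM against 6.60 and 0.874 CPM. Lef1, the DNA-binding partner of beta-catenin, stood at 71.7 and 54.2 CPM against 9 and 10.5 CPM. Sfrp2, a secreted modulator of Wnt, was among the genes furthest above progenitors, at 800 and 706 CPM against 123 and 79.6 CPM. Among Notch genes, Dll1 (a ligand) stood at 91.8 and 89.4 CPM against 10.8 and 15.7 CPM, and Nrarp (a target that feeds back on Notch) at 131 and 94.9 CPM against 24 and 26.2 CPM. Hes1, another Notch target, was as high in progenitors, at 559 and 629 CPM against 512 and 706 CPM in vesicle cells. Other genes far above progenitors were Prss23, Clec18a, Clu, Prnp and Nppc, all higher by more than 2 on the log2 scale in both libraries. Lhx1os, which lies antisense to Lhx1, was also higher, at 361 and 274 CPM against 36.0 and 38.5 CPM; no source used here states that counting used strand, so its reads may belong in part to Lhx1.

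Against later epithelium a smaller share of genes was higher in vesicle cells by 1 or more, and a larger share lower, than against progenitors. In all, 0.434% of 7149 genes were higher by 1 or more in vesicle cells than in Osr2-bearing cells in both libraries, and 3.76% were lower by as much. Fgf8 stood at 127 and 159 CPM in vesicle cells and 18.4 and 13.5 CPM in Osr2 cells; it is 1 of the rule's optional genes. Nppc, the C-type natriuretic peptide, stood at 78.0 and 114 CPM against 11.1 and 8.11 CPM, and Defb25, a beta-defensin, at 177 and 161 CPM against 27.6 and 7.21 CPM. Etv4, an ETS factor downstream of FGF signals, stood at 101 and 84.0 CPM against 27.6 and 22.5 CPM, and 11 of 13 FGF genes that the rule does not use were higher in both libraries, against 31.2% of all genes. FGF genes thus stood higher in vesicle cells than in Osr2 cells. In the other direction, Cdh6 was higher in Osr2 cells, at 296 and 308 CPM, and 6 of 10 proximal-side genes that the rule does not use were lower in vesicle cells in both libraries, against 37.2% of all genes. S-phase genes were higher in vesicle cells for 25 of 25 in both libraries, and nuclear-encoded respiratory chain genes were lower for 38 of 40.

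Against Irx1-bearing cells 1.67% of 5677 genes were higher by 1 or more in both libraries and 2.36% were lower. Bmp2, a secreted BMP, stood at 76.7 and 92.2 CPM in vesicle cells and at 5.72 and 3.21 CPM in Irx1 cells. Lama4, a laminin chain, stood at 120 and 131 CPM against 2.86 and 9.64 CPM, and Npy, a neuropeptide, at 135 and 121 CPM against 14.3 and 3.21 CPM. The imprinted RNA H19 stood at 307 and 286 CPM against 40.1 and 16.1 CPM. Irx1 cells were higher in Epcam, at 1050 and 1234 CPM, and in Cdh1, at 117 and 93.2 CPM. Junction genes as a group were lower in vesicle cells than in Irx1 cells for 19 of 29 in both libraries, against 32.5% of all genes. S-phase genes were higher in vesicle cells for 24 of 25 in both libraries, against 33.0% of all genes. The epithelial programme was thus intermediate in vesicle cells between progenitors and Irx1 cells.

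Most vesicle cells held transcripts of dividing cells. With at least 2 of 8 G2/M genes detected as the mark, 75.9% of control vesicle cells (67.0 to 83.3) and 72.2% of exposed ones (62.1 to 80.8) carried it, against 47.2% and 42.2% of progenitors, 53.6% and 48.9% of Osr2 cells and 24.5% and 38.3% of Irx1 cells. Thinned to 3000 UMIs, the shares in vesicle cells were 72.9% and 64.8%, a difference of -8.06 points with an interval from -20.8 to 4.76. The share in vesicle cells stood above that of progenitors in both libraries at equal depth too, where progenitors had 44.9% and 35.8%. Vesicle cells with the mark were lower in Cdkn1c, a cyclin-dependent kinase inhibitor, at 141 against 527 CPM in the control and 92.9 against 325 CPM in the exposed library. They were also lower in the tight-junction gene Cldn7, at 37.0 against 159 CPM and 26.0 against 110 CPM. Pou3f3, a POU factor of distal fate, was lower in cells with the mark as well, at 45.9 against 75.3 CPM and 39.0 against 100.1 CPM. The collecting duct water channel Aqp2 was higher without the mark in both libraries, at 502 against 4.44 CPM and 1356 against 164 CPM, and came from 4 and 6 cells, with 93.7% and 73.8% of its UMIs in 1 cell of each library. Cells with the mark were deeper, with medians of 7417.5 against 4264 and 7530 against 6086 UMIs, and the part of depth in these differences was not tested.

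Fgf8 and Tmem100 were found together in few vesicle cells. Both were detected together in 5 control and 3 exposed cells, although 38 and 35 cells held Fgf8 and 32 and 26 held Tmem100, and 51 and 39 cells held neither. In cells thinned to 3000 UMIs, Tmem100 was detected in 9.09% of 22 control and 4.17% of 24 exposed cells with Fgf8, against 18.8% of 85 and 20.9% of 67 cells without it. Both genes are options of the rule, and a cell without one of them had to hold another of the 4, so the rule bears on how often they occur together and the counts are a description. Few cells stand behind these shares.

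Cells with Fgf8 were higher in some other FGF genes. Of 9 FGF genes measured that the rule does not use, 5 were higher in cells with Fgf8 in both libraries, against 28.7% of all 4291 genes, and 1 was lower, against 26.5%. The 5 were Dusp6, Etv4, Fgfr1, Fgfrl1 and Spry1, and the lower one was the receptor gene Fgfr2. Nppc stood at 189 CPM in control cells with Fgf8 and 17.5 CPM in those without, and at 253 and 32.3 CPM in the exposed library. Etv4 stood at 185 against 54.5 CPM and 147 against 47.3 CPM, and Defb25 at 342 against 87.5 CPM and 308 against 75.3 CPM. Dkk1 (89.1 against 40.8 CPM, 191 against 53.8 CPM) and Bmp2 (114 against 56.4 CPM, 139 against 64.5 CPM) were among the 4 of 11 distal-side genes outside the rule that were higher in both libraries, while 1 was lower and Ccnd1 was near equal at 1108 against 1103 CPM and 1074 against 1129 CPM. Cells with a UMI of Fgf8 and cells without it differed in depth, with medians of 6256.5 and 5511.5 UMIs in the control and 7639 and 6460 in the exposed library. Etv4 was still found in 36.4% against 18.8% of control and 54.2% against 17.9% of exposed cells after thinning.

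Proximal-side genes were not of 1 direction in the same cells. Of 5 measured outside the rule, 3 were lower with Fgf8 in both libraries, against 26.5% of all genes, and 2 were higher, against 28.7%. Wt1 stood at 128 against 381 CPM and 139 against 280 CPM and Foxc2 at 21.4 against 70.0 CPM and 14.7 against 47.3 CPM, while Cdh6 was slightly higher with Fgf8, at 203 against 181 CPM and 147 against 138 CPM. The junction gene Cldn5 stood at 99.8 against 508 CPM and 58.6 against 320 CPM. Rasl11a, a small GTPase gene of the podocyte marker list, stood at 46.3 against 323 CPM and 44.0 against 191 CPM.

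**Figure D2:**
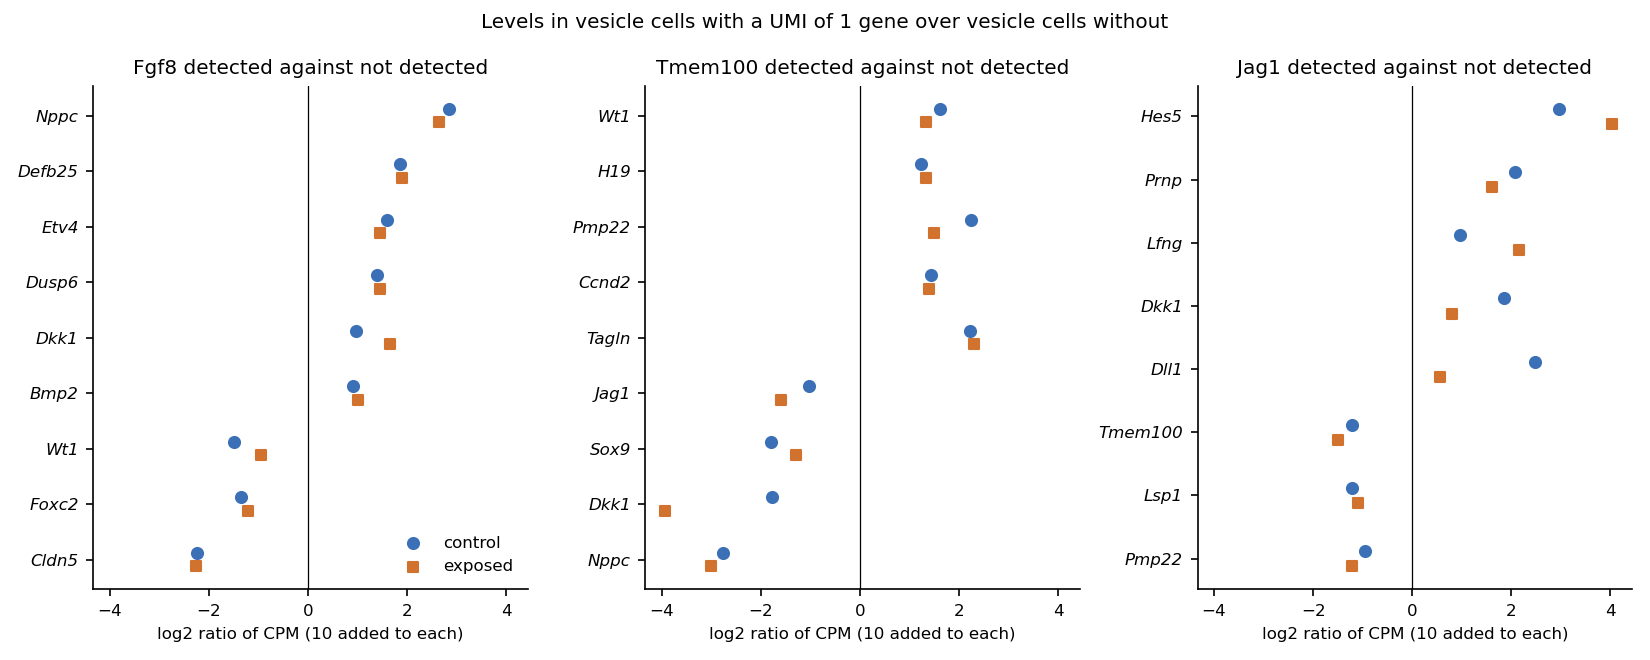
Log2 ratio of levels (horizontal axis, 10 CPM added to each) in vesicle cells with a UMI of Fgf8, Tmem100 or Jag1 over vesicle cells without, for genes singled out after their values were seen, in the control (circles) and exposed (squares) library. Both libraries lie on the same side of 0 for every gene shown; Hes5 without Jag1 and Dkk1 with Tmem100 had 0 UMIs in the exposed library, so those squares depend on the 10 CPM added.

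Cells with Tmem100, a transmembrane protein that is also seen in progenitors, were higher in Wt1. It was found in 30 of 32 control cells with Tmem100 and 37 of 84 without, and in 21 of 26 and 35 of 71 exposed cells. Its level was 546 against 172 CPM in the control and 413 against 159 CPM in the exposed library. H19 (511 against 211 CPM, 519 against 200.2 CPM), the cyclin gene Ccnd2 (173 against 57.4 CPM, 161 against 55.6 CPM) and the myelin protein gene Pmp22 (334 against 62.9 CPM, 222 against 72.3 CPM) were higher too. Of 11 distal-side genes outside the rule, 7 were lower with Tmem100 in both libraries, against 31.1% of all genes, and 2 were higher, against 26.0%. Jag1, which the rule requires of a cell without Tmem100 unless it holds Pax8 or Fgf8, stood at 173 against 365 CPM and 121 against 385 CPM. Sox9 stood at 15.7 against 79.6 CPM and 25.2 against 76.0 CPM, and Pou3f3 at 7.86 against 70.3 CPM and 5.04 against 74.1 CPM. Dkk1 was found in 1 of 32 control and 0 of 26 exposed cells with Tmem100, and in 20 of 84 and 21 of 71 without. Control cells with Tmem100 were deeper, with a median of 8280.5 against 5279 UMIs, while exposed ones were alike at 7530 against 7322. Ccnd1, of the same distal list, was slightly higher with Tmem100, at 1144 against 1086 CPM and 1134 against 1099 CPM, and Bmp2 went both ways, at 47.2 against 90.7 CPM and 101 against 89.0 CPM. Of 5 proximal-side genes outside the rule 3 were higher with Tmem100 in both libraries and 2 lower, among them Cdh6 at 78.6 against 241 CPM and 65.5 against 169 CPM.

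Hes5 followed Jag1 in the cells as counted. It was found in 26 of 88 control cells with Jag1 and in 1 of 28 without, and in 22 of 72 and 0 of 25 exposed cells. That is 72 UMIs (114 CPM) against 1 UMI (6.04 CPM) in the control and 89 UMIs (154 CPM) against 0 in the exposed library, where a count of 0 allows up to 18.7 CPM. The prion protein gene Prnp was also higher with Jag1, at 186 against 36.3 CPM and 173 against 49.8 CPM. Jag1-bearing cells were deeper, with medians of 6221.5 against 5170.5 and 7414.5 against 6613 UMIs. Thinned to 3000 UMIs, Hes5 was found in 20.7% against 16.3% of control and 23.4% against 11.4% of exposed cells. Thinned cells were sorted by the Jag1 UMIs they had left, and part of the Jag1-bearing cells had lost theirs. Cells counted as without Jag1 thus rose from 28 to 49 (control) and from 25 to 44 (exposed). Those among them with Hes5 rose from 1 to 8 and from 0 to 5, so most had held Jag1 before thinning. The thinned shares therefore cannot show how far the difference depends on depth, which was not tested otherwise.

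Between the libraries, the genes of the rule stood close together. Wnt4 (chr4:137277489-137299726, GRCm38, GENCODE M21) ran from 2 to 28 UMIs per control vesicle cell with a median of 4, and from 2 to 42 with a median of 5 in the exposed library. Summed, it stood at 823 and 917 CPM, a ratio of exposed to control of 1.11 (1.00 to 1.24). Lhx1 ran from 1 to 20 and 1 to 16 UMIs with medians of 2. Lhx1 (chr11:84518284-84525535) stood at 434 and 407 CPM (ratio 0.937, 0.800 to 1.10). Jag1 (chr2:137081456-137116644) stood at 303 and 314 CPM (1.04, 0.862 to 1.25) and Pax8 (chr2:24420560-24475599) at 370 and 346 CPM (0.934, 0.787 to 1.11). The per-cell ranges of Wnt4 and Lhx1 overlapped between the libraries. Since the rule selects on these genes, their near equality is a description and supports nothing further. The list counts between the libraries given below include genes of the rule. They are Wnt4 (Wnt components), Jag1 (Notch and distal-side genes), Lhx1 (distal-side genes and transcription factors) and Pax8 (transcription factors). Fgf8 (FGF genes) and Tmem100 (proximal-side and progenitor genes) are included as well.

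Over all 4291 genes with at least 50 UMIs in the vesicle cells of both libraries together, 192 (4.47%) were higher by at least 0.5 on the log2 scale in the exposed library and 135 (3.15%) were lower by as much; 48.6% were above 0 and 51.4% below. At the high end the UMIs lay in few cells. The 10 highest genes were Aqp3, Fxyd4, Aqp2, Tmem213, Tmem229a, Car2, Tfcp2l1, Npnt, Stc1 and Rhcg, among them the collecting duct water channel Aqp2 and the transcription factor Tfcp2l1. For each of them 1 cell held between 58.0% and 93.7% of the UMIs of at least 1 library. The 10 lowest were S100g, Gdf15, Ly6a, Sostdc1, Spp1, Fxyd2, Tagln, Calb1, Agfg1 and Cenpe, and 96.7% of the control UMIs of S100g, a calcium-binding protein of distal tubule, lay in 1 cell. Without the vesicle cells that held 20 or more UMIs of another cell type's markers, 3 of the 10 highest and 4 of the 10 lowest were still past 0.5. At the low end Cenpe and Agfg1 were spread over many cells, with at most 11.8% and 12.5% of a library's UMIs in 1 cell. They stood at -1.01 and -1.04, at -1.17 and -1.20 without the 5 cells with most UMIs of each, and at -0.91 and -1.03 without the cells of other types.

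Those cells were counted for every marker list. They numbered 10 of 116 control and 6 of 97 exposed vesicle cells. Podocyte markers accounted for 5 and 2, loop and distal tubule for 3 and 1, ureteric bud and collecting duct for 3 and 3, proximal tubule for 1 and 0, endothelium for 1 and 0, stroma for 0 and 1, and macrophage and neutrophil for 0 and 1, with some cells counted under more than 1 list. Summed marker levels of the vesicle cells stood below those of their whole library for 7 of 8 lists in the exposed and all 8 in the control library, the exception being ureteric bud and collecting duct at 763 CPM in exposed vesicle cells against 706 CPM in that library. Of 14 stroma markers 9 and 9 were detected in control and exposed vesicle cells, of 12 endothelial ones 11 and 5, of 15 proximal tubule ones 10 and 11, and of 13 macrophage and neutrophil ones 2 and 7. Of 11 podocyte markers 11 and 9 were detected, and of 11 loop and distal tubule ones 10 and 9. Of 13 ureteric bud and collecting duct markers 11 and 11 were detected, and of 6 red blood cell ones 2 and 2. Ramp2 (endothelium) had 134 and 98 UMIs, Tcf21 (stroma and podocytes) 77 and 62, and Fxyd2 (proximal tubule) 96 and 29, and C1qb, Lyz2 and Tyrobp (macrophages) each had 0 and 9. Markers at 0 in both libraries included Dcn and Lum (stroma), Kdr (endothelium), Cubn and Slc5a2 (proximal tubule), and Csf1r and Cd74 (macrophages). Of the ureteric bud and collecting duct list only Upk3a was at 0 in both, while Hoxb7 had 65 and 59 UMIs and Krt18 95 and 78. No counted marker of podocytes or of loop and distal tubule was at 0 in both libraries, and Wfdc2 of the latter list had 493 and 408 UMIs.

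**Figure D3:**
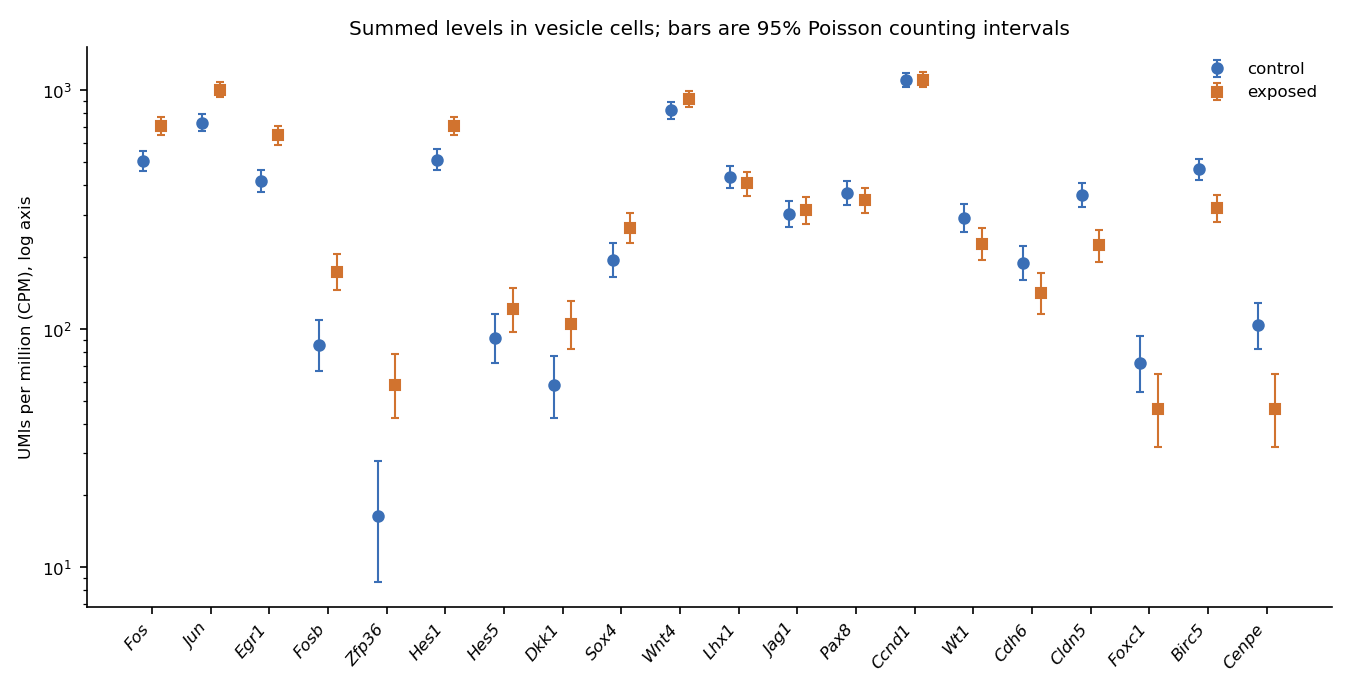
Summed levels in vesicle cells (CPM, log axis) of 20 genes in the control (circles) and exposed (squares) library, with 95% Poisson intervals that cover counting error only. Fos, Jun, Egr1, Fosb and Zfp36 stand higher and Cldn5, Birc5 and Cenpe lower in the exposed library, while Wnt4, Lhx1, Jag1, Pax8 and Ccnd1 nearly coincide.

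Immediate early genes had the highest median of the lists. Of 16 measured, 14 were higher in the exposed library, against 48.6% of all genes, and 8 of them by 0.5 or more, against 4.47%, and the median log2 ratio was 0.49 against -0.01 over all measured genes. Zfp36, an mRNA-decay factor, stood at 16.4 CPM (13 UMIs in 11 cells) in the control and 58.3 CPM (43 UMIs in 20 cells) in the exposed one, with a ratio of 3.56 (1.88 to 7.22). Fosb stood at 85.6 and 173 CPM (2.03, 1.5 to 2.76). Ier3 went the other way, at 47.8 and 27.1 CPM (0.567, 0.313 to 0.999), and Ier5 hardly differed, at 55.4 and 54.2 CPM. Egr1 (418 and 646 CPM), Fos (505 and 707 CPM) and Jun (731 and 1004 CPM), named after their values were seen, were higher too. These AP-1 and EGR factors respond quickly to growth signals and to tissue handling, and the part of handling in the result was not tested. Under all 17 alternative settings most measured genes of the list were higher in the exposed library, with medians from 0.24 to 1.10.

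Heat shock genes, which handling can also induce, were higher for 10 of 15, against 48.6% of all genes, with a median of 0.16. Dnajb1, a co-chaperone, stood at 201 and 286 CPM (1.42, 1.15 to 1.76) and Dnaja1 at 557 and 806 CPM (1.45, 1.28 to 1.64), although Dnaja1 was -0.24 on the log2 scale when cells were thinned before the rule was applied. Chordc1 (62.9 and 47.4 CPM) and Hspe1 (862 and 801 CPM) were the lowest of the list. Against progenitors both lists stood lower in vesicle cells, with 16 of 23 immediate early genes lower in both libraries, against 23.8% of all genes.

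Of 6 proximal-side genes measured, Tmem100 of the rule among them, 4 were lower in the exposed library, where 51.4% of all genes were lower. Their median was -0.37 against -0.01 over all measured genes, and most of them were lower under all 13 settings that gave a value. Foxc2, a forkhead factor of podocyte precursors, stood at 52.8 and 35.2 CPM (0.667, 0.392 to 1.11), and Wt1 at 292 and 228 CPM (0.780, 0.636 to 0.955). Cdh6 stood at 189 and 141 CPM (0.747, 0.576 to 0.965), but was higher in the exposed library when cells were thinned before the rule (0.48) or when cells with the G2/M mark were left out (0.12). Papss2 and Tmem100 hardly differed, at 35.2 and 36.6 CPM and at 65.4 and 71.8 CPM. The counting intervals of Cdh6 and Wt1 lay below 1, as did those of 5.08% of all genes (5.31% lay above 1).

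Distal-side genes, with Jag1 and Lhx1 of the rule among them, were near equal. Of 13 measured, 9 were higher, against 48.6% of all genes, with a median of 0.05. Dkk1 was the only one past 0.5, where 4.47% of all genes were higher and 3.15% lower by as much. Dkk1 stood at 57.9 CPM (46 UMIs in 21 cells) and 104 CPM (77 UMIs in 21 cells), a ratio of 1.80 (1.24 to 2.66), higher in the exposed library under all 13 settings that measured it. Dkk1 was found in 18.1% of control and 21.6% of exposed vesicle cells, and after thinning to 3000 UMIs in 11 of 107 (10.3%) and 17 of 91 (18.7%). Emx2 stood at 62.9 and 80.0 CPM (1.27, 0.857 to 1.89), and Lhx1 and Npy were the lowest of the list, at a ratio of 0.937 and 0.896. Dll1 and Ccnd1 had log2 ratios of -0.03 and 0.00.

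The pathways were measured next. Of 5 canonical Wnt targets, 4 were higher in the exposed library, against 48.6% of all genes, with a median of 0.43. Ccnd1 counted as higher at a log2 ratio of 0.005. Without cells over 25% mitochondrial UMIs, or without the 5 cells with most UMIs of each gene, 3 of 5 were higher. Beside Dkk1, Nkd1 (an intracellular Wnt inhibitor) stood at 25.2 and 42.0 CPM (1.67, 0.922 to 3.09) and Sox4 at 195 and 266 CPM (1.36, 1.10 to 1.69), though Sox4 was -0.41 when cells were thinned before the rule. Ccnd1, the G1 cyclin, stood at 1105 and 1109 CPM (1.00, 0.911 to 1.11), with a log2 ratio of -0.79 when cells with the G2/M mark were left out, and Lef1 at 71.7 and 54.2 CPM (0.756, 0.492 to 1.15). The 12 measured components of the pathway held no gene past 0.5 in either direction, a size that 4.47% of all genes reached upward and 3.15% downward. Dkk1 and Nkd1 are inhibitors of the pathway as well as targets.

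Notch genes did not share a direction, with 6 of 14 higher, against 48.6% of all genes, and a median of -0.05. Hes1 stood at 512 and 706 CPM (1.38, 1.21 to 1.57) and was -0.32 on the log2 scale when cells were thinned before the rule. Hes5 stood at 91.8 CPM in 27 cells and 121 CPM in 22 cells (1.31, 0.953 to 1.81), and its log2 ratio was -0.45 when cells were thinned before the rule and 1.17 without cells with the G2/M mark. Nrarp was lower at 131 and 94.9 CPM (0.725, 0.528 to 0.991) and Hes6 at 71.7 and 42.0 CPM (0.586, 0.366 to 0.923). The receptors Notch1 (138 and 121 CPM) and Notch2 (99.4 and 94.9 CPM) and the target Hey1 (161 and 134 CPM) had intervals that included a ratio of 1. Targets of the same pathway thus stood on both sides of 0.

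Of 10 FGF genes, Fgf8 of the rule among them, 7 were higher, against 48.6% of all genes, with a median of 0.16. None was past 0.5, where 4.47% of all genes were higher and 3.15% lower by as much. Fgf8 stood at 127 and 159 CPM (1.25, 0.948 to 1.64), its receptor Fgfr2 at 71.7 and 97.6 CPM (1.36, 0.948 to 1.96), and the feedback inhibitor Spry1 at 109 and 133 CPM (1.21, 0.900 to 1.64). Its responders Etv4 (101 and 84.0 CPM) and Dusp6 (36.5 and 31.2 CPM) were not higher. Of 14 BMP genes 7 were higher, against the same 48.6% of all genes, with a median of 0.00. Bambi, a decoy receptor, stood at 128 and 186 CPM (1.45, 1.11 to 1.89), and was -0.09 among cells with 3 or more Wnt4 UMIs. Bmp7 stood at 64.2 and 82.7 CPM and Bmp2 at 76.7 and 92.2 CPM, and Id3, a BMP target, at 1022 and 1000.1 CPM.

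Nephron transcription factors, with Lhx1 and Pax8 of the rule among them, were lower for 12 of 20, against 51.4% of all genes, with a median of -0.09. Beside Wt1 and Foxc2, Foxc1 stood at 71.7 and 46.1 CPM (0.642, 0.407 to 0.999) and Sox11, a SoxC factor, at 881 and 720 CPM (0.817, 0.729 to 0.916). Tfcp2l1, higher by 2.01 on the log2 scale, had 76.1% of its UMIs in 1 exposed cell. Junction and polarity genes were lower for 12 of 21, against the same 51.4% of all genes, with a median of -0.15. Cldn5 stood at 364 and 224 CPM (0.615, 0.505 to 0.747) and was lower under all 17 settings, from -0.91 to -0.40. F11r, a junctional adhesion molecule, stood at 37.7 and 70.5 CPM (1.87, 1.17 to 3.03), and Cdh16, the kidney cadherin, at 54.1 and 114 CPM (2.10, 1.44 to 3.11); Cdh16 was -0.23 without the 5 cells that held most of its UMIs. Of 11 progenitor genes 5 were higher, against 48.6% of all genes. Capn6, a calpain of the cap mesenchyme, stood at 49.1 and 88.1 CPM (1.80, 1.19 to 2.74), while Meis2 stood at 80.5 and 62.3 CPM.

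**Figure D4:**
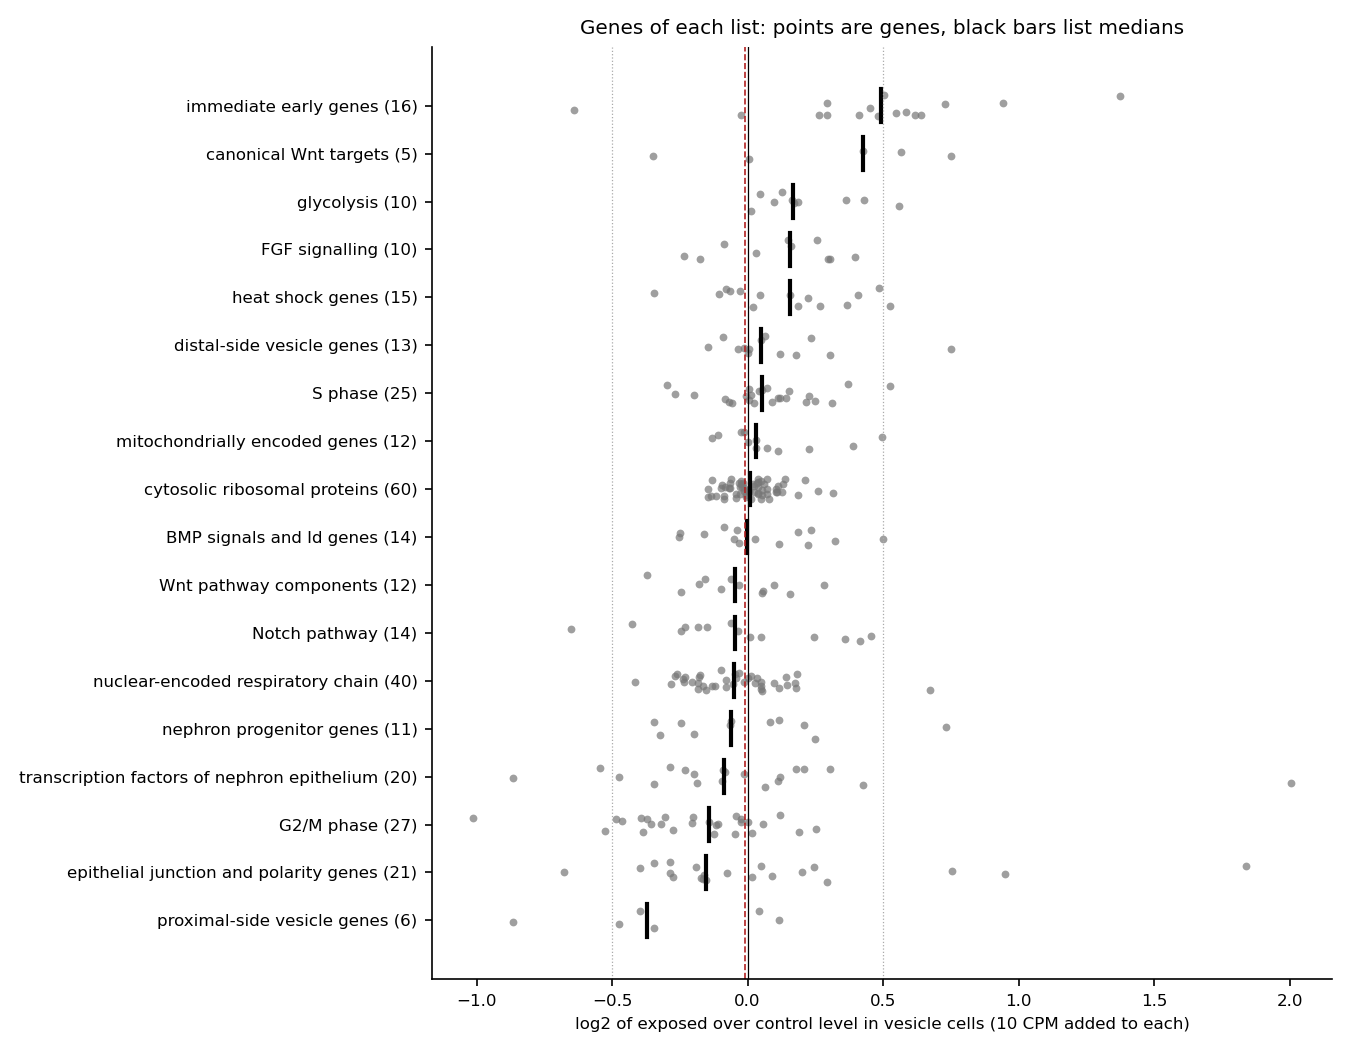
Log2 ratio of exposed over control level in vesicle cells (horizontal axis, 10 CPM added to each) for the measured genes of 18 lists, with the number of genes in brackets; grey points are genes, black bars list medians, the red dashed line the median of all measured genes, and dotted lines a size of 0.5. Immediate early genes lie furthest to the right with a median of 0.49 and proximal-side genes furthest to the left with -0.37.

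Cell cycle genes differed by phase. Of 27 G2/M genes, 21 had ratios below 1, against 51.4% of all genes, and the median log2 ratio was -0.14. Cenpe, a centromere motor, stood at 103 and 46.1 CPM (0.447, 0.290 to 0.674), Birc5, a chromosomal passenger protein, at 466 and 320 CPM (0.687, 0.581 to 0.811), and Plk1 and Kif23 were the highest at ratios of 1.26 and 1.17. Of 12 measured in cells thinned before the rule, 6 were lower. Of 25 S-phase genes 18 were higher, against 48.6% of all genes, with a median of 0.05, but 2 of 9 were higher in cells thinned before the rule.

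Metabolic genes showed small differences. All 10 measured glycolysis genes were above 0, where 48.6% of all genes were, with a median of 0.17. Ldha, lactate dehydrogenase A, stood at 234 and 350 CPM (1.49, 1.23 to 1.81) and Aldoa, an aldolase, at 164 and 224 CPM (1.37, 1.08 to 1.73), while Tpi1 (214 and 221 CPM) and Pgk1 (283 and 286 CPM) nearly coincided. In cells thinned before the rule 6 of 9 were higher, the median was 0.01, and Aldoa was -0.29. Mitochondrially encoded genes were higher for 8 of 12 with a median of 0.03, a direction that 6 of 17 settings did not keep. Nuclear-encoded respiratory chain genes were higher for 16 of 40, and both counts stand beside the 48.6% of all genes. Among insulin and IGF genes, 5 of 10 were higher; Igf1r, the IGF1 receptor, stood at 148 and 104 CPM (0.703, 0.520 to 0.945) and Pik3ca at 47.8 and 27.1 CPM (0.567, 0.313 to 0.999), with Igfbp5, Akt1 and Igfbp2 the highest of the list at ratios of 1.18, 1.17 and 1.17.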

How the data were processed

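Droplet single-cell RNA sequencing of 2 libraries, 1 per group, was used. The authors deposited UMI counts per gene and cell, and per cell a mitochondrial percent, a cluster number and a hybrid doublet score, per the file headers. Cell Ranger 2.2.0 and mm10 are named in the submitters' processing notes; aligner settings, annotation and strand: not given in the sources used here. In total the libraries held 39442253 control and 28381167 exposed UMIs, and the 8930 genes listed in both were used, of which 8611 symbols matched the annotation and 319 did not. Counts were summed over cells and divided by their total (CPM); log2 ratios have 10 CPM added to each side. A gene was measured with at least 50 UMIs over both libraries. Ratios have exact conditional binomial intervals, levels Poisson, shares Clopper-Pearson and differences of shares Newcombe intervals, all at 95% and for counting error only, leaving out the spread between cells and animals. With 1 library per group no p-value was computed. Cells with a hybrid score above 1 (584 control and 277 exposed cells) were left out of the vesicle cells as possible doublets, and no other doublet call was made. Neighbouring populations were cut by marker genes: progenitors (265 control and 154 exposed cells), Osr2 and Lhx1 cells (166 and 133), Irx1 and Lhx1 cells (53 and 47) and endothelial cells (112 and 94).

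The members and gene lists were chosen with earlier results of these data known. Named were the genes of the rule and of the Wnt target, Notch, FGF, BMP, transcription factor and junction lists; the 10 highest and 10 lowest exposed to control ratios; the 15 highest and 10 lowest genes against progenitors and the 8 highest against Osr2 and Irx1 cells; and in each other list the 2 highest and 2 lowest. Genes named in comparisons of vesicle cells with and without Fgf8, Tmem100, Jag1 or the G2/M mark, and a few others of the lists, were chosen after their values were seen. Scripts ran in Python 3.11.15 with numpy 2.4.6, scipy 1.17.1, pandas 2.3.3 and matplotlib 3.10.9 and were tested on simulated data. Some genes are not reported here.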

Additional observations from a re-analysis of the deposited data

How the results depend on the processing

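Of the alternatives, 3 were chosen after seeing the data: thinning vesicle cells to 3000 UMIs after the rule, leaving out those with 20 or more UMIs of another cell type's markers, and the same without counting podocyte markers. The share of vesicle cells and their G2/M share moved by less than their intervals in the 7 and 8 alternatives run. Of the log2 ratios recomputed for named genes, 1122 moved little, 130 moved further and 13 turned, which was counted only for genes whose interval excluded a ratio of 1. No paired analysis was possible because each group has 1 library.

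The 192 genes higher by 0.5 or more became 50 with cells thinned before the rule, 92 with thinning after it, 46 with 50 CPM added, 480 and 17 with minimums of 20 and 200 UMIs, and 94 without cells with the G2/M mark. The 135 lower genes became 72 thinned before the rule, 232 and 19 with 1 and 50 CPM added, 352 and 9 with minimums of 20 and 200 UMIs, 205 with cells weighted equally, and 267 without the 5 cells with most UMIs of each gene. The 145 genes higher than in progenitors became 68 thinned and 219 with 1 CPM added, and the 88 lower genes 148 with 1 CPM added. Against Osr2 cells, 31 higher genes became 5 thinned and 68 with 1 CPM added, and 269 lower genes became 63 thinned. Against Irx1 cells, 95 higher genes became 41 and 134 lower genes 37 when thinned.

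With cells thinned before the rule, the percent of genes higher in the exposed library was 14.3% for Notch, 66.7% for junction, 50% for G2/M, 22.2% for S phase, 100% for immediate early, 90.9% for heat shock, 100% for mitochondrially encoded and 66.7% for glycolysis genes. Without cells with the G2/M mark it was 100% for BMP, 81.8% for junction, 20% for S phase, 100% for immediate early and 66.7% for glycolysis genes. Immediate early genes were also at 100% with thinning after the rule, with a minimum of 200 UMIs and without cells of other types bar podocytes, where G2/M genes were at 46.2%. Mitochondrially encoded genes were at 16.7% with high hybrid scores kept, 33.3% without cells over 25% mitochondrial UMIs, 16.7% with Wnt4 at 1 or more UMIs, 25% with cells weighted equally and 16.7% without the 5 cells, and junction genes at 14.3% without the 5 cells.

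Log2 ratios of genes whose counting interval excluded a ratio of 1 turned when thinned before the rule for Dnaja1 (-0.24), Aldoa (-0.29), Sox4 (-0.41), Hes1 (-0.32) and Cdh6 (0.48), which was also 0.12 without cells with the G2/M mark. Hes5, whose interval included 1, was -0.45 when thinned before the rule. The others turned without the 5 cells for Npnt (-0.42), Cdh16 (-0.23) and Sostdc1 (0.018), with high hybrid scores kept for Spp1 (0.064) and Fxyd2 (0.49), with Wnt4 at 3 or more UMIs for Bambi (-0.092), and without cells of other types for S100g (0.00347). The cause was not tested, beyond fewer cells and UMIs in the thinned and reduced sets.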
